A study of Mus musculus with 12 samples.

Results

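mG3 is a clonal line of neural progenitor cells (NPC) grown from F1-23, a male (XY) embryonic stem (ES) line of 129Sv-Cast/EiJ hybrid mouse origin, in which reads over strain variants tell the 129 allele from the Cast allele. It was compared with its sister clones mC3, mE6 and mB4, which came from the same ES line and carry the same pair of genomes. Autosomal genes were picked by 4 rules. A gene was of a single allele in mG3 only when at least 20 counts and at least 85% from 1 allele in mG3 met at least 20 counts and at most 70% from the major allele in each sister. A gene was silent in mG3 only when it had at most 3 counts and an FPKM under 0.1 there, and at least 100 counts in each sister. It was far above or far below when log2(FPKM + 1) in mG3 lay at least 2 beyond the nearest sister. These rules found 39, 6, 3 and 7 genes, and because 1 gene was both silent and far below, 54 of 14415 autosomal genes (14899 genes in all) are described.

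Polyadenylated RNA was sequenced from 2 hybrid ES lines, kept on inactivated feeder cells with leukaemia inhibitory factor, and from NPC clones differentiated from them. The XY clones mG3 (1 library) and mC3, mE6 and mB4 (3 libraries) are the groups compared, with the XY ES line, the XX ES line F1-21.6 and the XX NPC clones 129, C2, G4 and E1.2 (4 libraries) as further readouts. No group carried a transgene or a treatment in the labels. In the values used here each NPC line is 1 clone with 1 library, since the repeat libraries of C2 and mC3 have no values. Thus mG3 has no replicate of its own and p-values measure the spread between clones. Allele-informative counts, summed over genes, were 89166668 in mG3 and 72230497 to 91955553 in the sisters. Of the radial glia markers, Nes, an intermediate filament gene, was at 346.7 FPKM in mG3 and Fabp7, the brain lipid-binding protein, at 1659. Others of that list were low in mG3: Sox1 was at 3.53, Hes5 at 2.77 and Cspg4 at 0.0535 FPKM. Of 21 pluripotency genes, 6 were in the table and none passed 3.38 FPKM in an XY clone. Of 20 neuronal markers 11 were in the table, and none passed 6.85. Astrocyte markers in mG3 ran from 0.0788 FPKM (Gfap) to 149 (Sparcl1), and oligodendrocyte markers reached 26.8 (Cnp).

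In mammals most autosomal genes are transcribed from both alleles. Imprinted genes use the maternal or the paternal copy by a mark set in the germ line, and random monoallelic genes settle on 1 copy, or on both, in a way that a clone passes on to its daughter cells. A clonal line therefore shows as 1 pattern what a mixed culture would average out.

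In mG3, 792 of 12331 testable autosomal genes (6.42%) were of a single allele, 379 of them for 129 and 413 for Cast. The sisters had 5.83% to 6.95%. Of the 792 genes, 183 used the same allele alone in all 3 sisters, 266 were biallelic in 1 or 2 sisters and 39 in all 3. The 39 make up 0.333% of the 11726 genes testable in all 4 XY clones. With each sister in the place of mG3, the same rule found 33 genes for mC3, 64 for mE6 and 49 for mB4, so the count for mG3 lies within the range of the XY clones. Fewer sisters ask less of a gene: without mC3, mE6 or mB4 the count for mG3 was 67, 79 or 70.

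**Figure D1:**
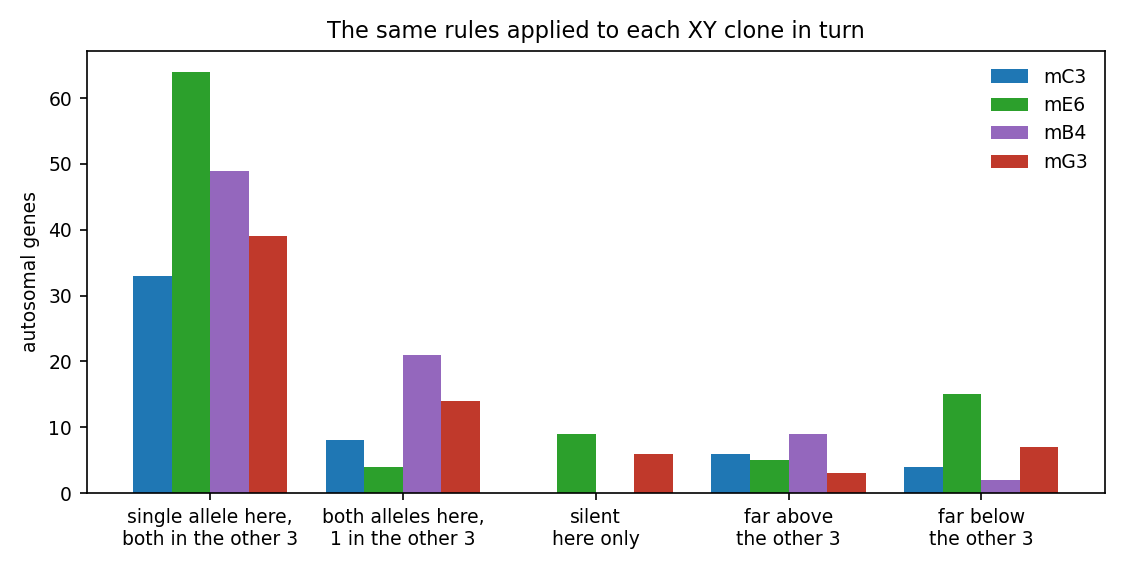
Autosomal genes found when each rule was applied to each of the 4 XY clones against the other 3 (bars, number of genes, 1 library per clone). mG3 has 39 genes of a single allele, between 33 in mC3 and 64 in mE6, and it has 6 silent genes, against 9 in mE6 and 0 in mC3 and mB4.

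The 39 genes of a single allele were on 15 of the 19 autosomes. Among them 15 kept 129 and 24 kept Cast. 4 pairs overlap in the annotation, each with the same allele in both genes, which leaves 35 loci. In 23 genes the exact 95% interval (Clopper-Pearson, counting error only) of the major allele lay wholly above 85%, 14 genes were at 95% or more, and 10 at 99% or more. The allele shares chose these genes and carry no test. Just inside the 85% limit stood Prrt2 at 85.2%, and just outside it Zfp457 at 84.8%. Pfn4 reached 69.9% in its least balanced sister and was kept, while Zfp937 reached 70.5% and was not.

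The best read of these genes was Pttg1, which encodes securin, the inhibitor of separase in mitosis (chromosome 11, 43233750 to 43239750, mm9, as are all positions unless stated). Its 129 share was 0.161% in mG3 (95% interval 0.0941 to 0.258, 10529 counts). In mC3, mE6 and mB4 it was 48.0%, 45.3% and 44.3%. The XY ES line stood between the classes at 29.2%, and 3 of the 4 XX clones also used Cast alone. The sisters thus read both alleles of a gene from which mG3 gave almost only Cast counts.

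Cpped1, Zfp770 and Lipa also had under 0.3% from 129 in mG3. For Cpped1, a phosphatase of the calcineurin-like family (chromosome 16, 11803814 to 11909516), the share was 0.0409% in mG3 (4885 counts) and 48.0%, 46.8% and 45.5% in mC3, mE6 and mB4. Zfp770, a zinc finger gene (chromosome 2, 114019039 to 114027187), was at 0.208% in mG3 (3852 counts) and at 49.9%, 52.8% and 49.3% in the sisters in the same order. Lipa, the lysosomal acid lipase (chromosome 19, 34566806 to 34601964), was at 0.0482% in mG3 (2075 counts) and at 53.5%, 61.1% and 52.5%. In each of the 3 the sisters lay close to equal use and mG3 near 0, a separation that the rule asks for. Ifit2, the next testable gene to the right of Lipa, 23219 bases away, was of a single allele for 129 (99.1%), the opposite allele.

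Other well-read genes also kept mainly Cast, with 129 shares in mG3 from 0.766% (Aass) to 8.60% (Arsb). Gpr98, a very large adhesion receptor (chromosome 13, 81234066 to 81772167), had a 129 share of 8.31% in mG3 over 5706 counts, and 47.6%, 59.0% and 46.6% in mC3, mE6 and mB4. Rftn2, a lipid raft protein (chromosome 1, 55227004 to 55283853), had 7.46% over 3095 counts, against 47.3%, 43.7% and 45.3%. Arsb, the lysosomal arylsulfatase B (chromosome 13, 94541634 to 94712971), had 8.60% over 1256 counts. Its sisters were at 34.8%, 31.2% and 46.0%. Obfc1, a subunit of the telomeric CST complex (chromosome 19, 47575538 to 47611597), had 4.10% over 877 counts, against 53.1%, 37.9% and 33.7%. Aass, an enzyme of lysine breakdown (chromosome 6, 23020998 to 23082986), had 0.766% over 261 counts, against 48.7%, 35.1% and 46.5%. All 5 had at most 8.60% of their counts from 129 in mG3, and the sisters lay between 31.2% and 59.0%.

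5 of the well-read genes with a single symbol kept 129. Trim56, a ubiquitin ligase of the innate immune response (chromosome 5, 137581517 to 137592137), had a 129 share of 88.0% in mG3 over 3874 counts, and 68.6%, 60.3% and 60.3% in mC3, mE6 and mB4. Spp1, the secreted phosphoprotein osteopontin (chromosome 5, 104864130 to 104870072), had 86.3% over 3437 counts, against 61.5%, 64.7% and 69.3%. For these 2 genes every sister was itself above 60% for 129. Layn, the hyaluronan receptor layilin (chromosome 9, 50863128 to 50885263), had 89.9% over 1006 counts, against 43.3%, 57.6% and 56.0%. Vax2, a homeobox gene of the ventral eye (chromosome 6, 83661258 to 83689319), had 88.8% over 260 counts, against 61.9%, 58.5% and 43.5%. 9430016H08Rik (chromosome 1, 57463392 to 57472802) had 88.7% over 265 counts, against 51.9%, 49.1% and 41.2%. Its head-to-head neighbour 1110034B05Rik, which overlaps it by 127 bases, had 100% over 146 counts.

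**Figure D2:**
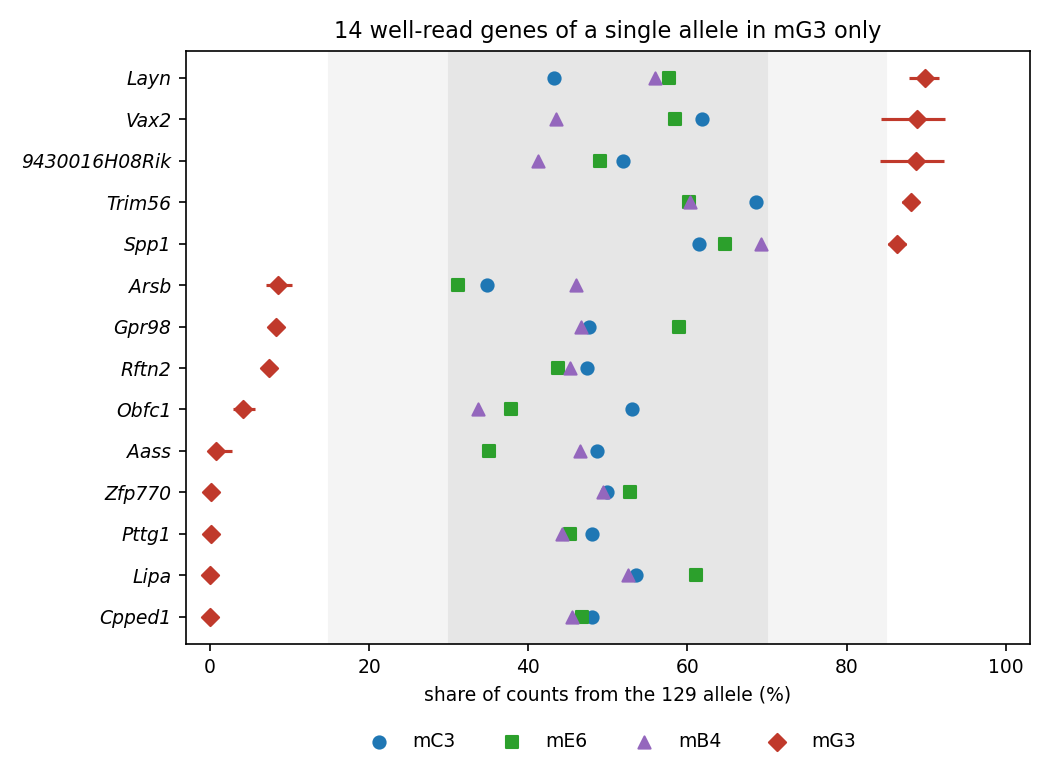
Share of counts from the 129 allele (x axis, percent) for 14 well-read named genes, in the 4 XY clones. Diamonds are mG3 with exact 95% intervals, other symbols are the sisters, and the darker band spans the biallelic range from 30% to 70%; the diamonds lie at 8.60% or less or at 86.3% or more.

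Most other genes were less deeply read or carried no single symbol. The best read of these were an unnamed fragment on chromosome 7 (82913924 to 82927017, 129 share 0.159%) and the noncoding NR_045299 (99.2%). For Cast came Ldb3, Pllp, Gabra5, Adra2a, Dtx3l, Erg, Tmem145, Lrrtm3, Ctnna3, NR_045322 and NR_040390, with Txnrd2 and 1 more fragment. For 129 came Rnf113a2, Svip, Acss3, Pfn4, Gpr37l1, Prrt2, Mir9-3 and NR_040466 beside 1110034B05Rik. Lrrtm3 lies inside Ctnna3, and both were listed with 25 counts and a share of 12% in mG3, so they are 1 observation. The entry Mir9-3 is the gene of that name in the table and says nothing of a mature microRNA. 13 of the 39 genes had under 100 counts in mG3.

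Values of 4 of the less deeply read genes follow, chosen after the values were seen. Gabra5, a subunit of the GABA-A receptor (chromosome 7, 64663039 to 64765445), had a 129 share of 0.714% in mG3 over 140 counts and 38.5%, 50.7% and 66.7% in mC3, mE6 and mB4. Pllp, the myelin protein plasmolipin (chromosome 8, 97198795 to 97220142), had 9.04% over 166 counts, against 44.5%, 49.6% and 34.3%. Adra2a, an adrenergic receptor (chromosome 19, 54119560 to 54123472), had 5.08% over 59 counts, against 65.2%, 68.5% and 54.6%. With counts this low the 95% interval of Adra2a ran from 1.06% to 14.1%. Its distance from the sisters is what the rule asks for, and mC3 had only 23 counts. Rnf113a2, an intronless RING finger gene (chromosome 12, 85758150 to 85759528), had 93.4% over 121 counts, against 39.6%, 48.6% and 47.3%.

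Readouts that the rule did not use place these genes in the other libraries. Both genes of each overlapping pair are counted here, so those loci enter more than once. In the XY ES line 33 of the 39 were testable, of which 24 were biallelic, 8 stood between the classes and 1, Erg, was of a single allele. In the XX NPC clones 17 of the 39 (43.6%) were of a single allele in at least 1 clone. Among the 9255 genes biallelic in all 4 XY clones this share was 3.41%. The allele was the one kept in mG3 in at least 1 XX clone for 13 genes, and only the other one for 4. Lipa was on Cast in G4 as well (5.49%), at 50.2% to 63.8% in the other 3 XX clones. Layn, on 129 in mG3, was on Cast in clone 129 (1.99% over 151 counts), and Vax2, also on 129 in mG3, was on Cast in G4 (9.88%). Gpr98 used Cast in C2 (5.74%) and E1.2 (13.8%) and 129 in clone 129 (87.4%), so both alleles were found alone among the 8 clones.

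Position was likewise not part of the rule. Overlapping genes share neighbours, as Obfc1 and NR_045322 share Sh3pxd2a and Slk, and such neighbours are counted more than once. Of the 78 nearest testable neighbours on either side, at a median distance of 43593 bases, 64 were biallelic in mG3 and 6 (7.69%) of a single allele, beside 6.42% of all testable genes. Over 238 windows of 10 Mb the median 129 share in mG3 ran from 42.4% to 57.9%, and by chromosome from 49.8% to 50.3%. Median levels by chromosome were within -0.02 to 0.06 (log2 CPM, mG3 minus the mean of the sisters), and by window within -0.32 to 0.16.

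The allele rule set no limit on the total level of these genes beyond 20 counts. The counts behind CPM and the edgeR fit are, however, the sum of both alleles, and the rule asks that a single allele give most of them in mG3. These levels are therefore not independent of the choice of genes. How far that choice by itself lowers the level of the chosen genes was not tested. All 39 entered the edgeR fit of 8 NPC clones, which tests mG3 against the sisters with the spread of the sisters and XX clones. Their median log2 fold change was -0.92 (quartiles -1.32 and -0.36), beside -0.01 over all 14307 genes tested, and 31 of 39 values were negative. In CPM (counts per library total, scaled by TMM factors), 23 of the 39 (59.0%) were below every sister. Above every sister were 3 (7.69%), and of all genes 27.3% were below and 28.8% above. Overlapping genes count apart here. Obfc1 with NR_045322, 9430016H08Rik with 1110034B05Rik and Lrrtm3 with Ctnna3 are all among the 23. No single gene of the 39 passed an adjusted p of 0.05, by edgeR's quasi-likelihood test, DESeq2 or limma. By edgeR 5 of them had an unadjusted p under 0.05, and of all genes 3.43% did. Zfp770 was at 11.0 FPKM in mG3 and at 30.7, 25.4 and 34 in mC3, mE6 and mB4. Rftn2, with a log2 fold change of -1.57, was at 8.04 FPKM against 23.6, 15.6 and 24.4. Cpped1 was at 19.7 FPKM against 43.2, 40.2 and 35.9. All 3 lay below every sister. Layn, at 3.8 FPKM against 1.69, 2.66 and 2.77, lay above every sister.

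The 2 alleles can also be given apart, as a description of values that the rule used. The allele kept in mG3 had a median of 0.92 times its mean CPM in the sisters, with quartiles of 0.739 and 1.34. The other allele had a median of 0.0688 times. For Cpped1 the kept allele was at 0.981 times and the other at 0.000456 times. For Lipa they were at 0.919 and 0.00035 times. Layn, Gpr98 and Spp1 had more of the kept allele, at 2.6, 1.93 and 1.63 times, and total levels at or above those of some sisters. Across the 14 genes with at least 500 counts in all 4 clones the kept allele ran from 0.574 times, in Rftn2, to 2.6 times, in Layn. The rule fixes the low ratio of 1 allele and also bears on the ratio of the kept one, so neither supports a statement on level.

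Igf2r and Airn overlap, and in mG3 they lay on opposite sides of the sisters. Igf2r encodes the receptor that takes up insulin-like growth factor 2 for breakdown, and it is imprinted, with the maternal copy active in most mouse tissues. Airn is a long noncoding RNA that starts inside Igf2r on the opposite strand, from the paternal copy, and its transcription is known to silence Igf2r on that copy. Airn (chromosome 17, 12933983 to 13052750) had 7175, 4257 and 4327 counts in mC3, mE6 and mB4 and 64 in mG3. Its FPKM was 9.18, 7.33 and 9.12 in the sisters and 0.000976 in mG3. The sisters read it from Cast alone, with 129 shares of 0.251%, 0.728% and 0.0462%, and the few counts of mG3 came from both alleles (129 share 40.6%, 95% interval 28.5 to 53.6). In CPM the sisters had 65.5 ± 13.6 (SD, n = 3), 88.2 times the 0.743 of mG3, with no overlap.

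Airn was the only one of 14307 genes to pass edgeR's quasi-likelihood test, with a log2 fold change of -6.46 (SE 0.47) and an adjusted p of 0.0322. Genes called lower were thus 0.00699% and genes called higher 0.0% of those tested, and 3.43% had an unadjusted p under 0.05. DESeq2 called 55 lower (0.4%) and 3 higher (0.0218%) of 13766. The edgeR call rests on the pooled spread of all 8 clones: in a fit of the 4 XY clones alone the adjusted p was 0.183, and without mC3, mE6 or mB4 it was 0.0861, 0.0947 or 0.192. The tests and the level rules use the same libraries and are not independent, for Airn and for every other silent or far gene.

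Igf2r (chromosome 17, 12875272 to 12996450) was at 75.9 FPKM in mG3 and at 15.6, 15.6 and 15.9 in mC3, mE6 and mB4. That is 4.83 times the sisters' mean of 15.7 ± 0.202 (SD, n = 3), and it was the highest of all 10 libraries, with 24.7 in the XY ES line, 25.2 in the XX ES line and 1.49 to 10.0 in the XX clones. The 129 share was 35.8% in mG3 and 68.9%, 77% and 71.1% in the sisters. Counts from Cast were 165 CPM in mG3 against 23.2, 15.1 and 20.2, and counts from 129 were 92.0 CPM against 51.4, 50.5 and 49.7. Both alleles were thus higher in mG3 than in every sister, and the Cast allele, the one from which the sisters read Airn, by more. Igf2r had an edgeR log2 fold change of 1.88 (SE 0.378) and an adjusted p of 0.946, and DESeq2 gave an adjusted p of 0.0105. The 2 genes overlap on opposite strands and the strand of the counting is not stated, so reads in the overlap cannot be told apart.

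The genes beside them kept both alleles in all 4 XY clones. Tcp1, a chaperonin subunit, had a 129 share of 46.9% in mG3 and 44.4% to 44.8% in the sisters, at 311.6 FPKM against 217.5 to 268.4, above every sister. Mrpl18, a mitochondrial ribosomal protein, had a share of 50.8% against 46.5% to 49.3%, at 70.3 FPKM against 60.4 to 74.0. In the XY ES line Airn had 79 counts, with a 129 share of 1.27% and 0.289 FPKM, and all 4 XX clones had 11218 to 22022 counts. Its 129 share was 35.4% in C2, 30.4% in G4, 61.7% in E1.2 and 98.8% in clone 129. The Igf2r share in these clones was 46.8%, 42.1%, 55.1% and 73.5% in the same order. Reads of Airn and Igf2r from both alleles were thus not particular to mG3.

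The RefSeq promoters of both genes are shown because these genes differed in opposite directions (GRCm38.p6, Airn on the plus strand at chr17:12741061-12741360, Igf2r on the minus strand at chr17:12769657-12769956, each from 250 bases before to 50 after the start). Capitals mark the dinucleotide CG, which reads the same on both strands.
Airn: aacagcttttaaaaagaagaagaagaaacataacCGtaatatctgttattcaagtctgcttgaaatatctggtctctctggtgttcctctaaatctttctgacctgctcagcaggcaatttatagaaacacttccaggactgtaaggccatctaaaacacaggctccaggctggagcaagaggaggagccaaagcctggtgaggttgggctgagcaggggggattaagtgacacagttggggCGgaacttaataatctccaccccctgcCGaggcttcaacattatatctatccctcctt
Igf2r: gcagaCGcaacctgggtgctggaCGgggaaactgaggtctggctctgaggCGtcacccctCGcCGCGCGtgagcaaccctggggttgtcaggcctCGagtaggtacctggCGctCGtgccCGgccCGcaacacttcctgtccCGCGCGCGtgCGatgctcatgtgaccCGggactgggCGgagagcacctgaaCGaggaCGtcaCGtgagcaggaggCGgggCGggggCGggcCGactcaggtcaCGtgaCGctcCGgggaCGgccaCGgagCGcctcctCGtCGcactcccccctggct
The Airn window holds 3 CG and the Igf2r window 34. Of the 27025 promoters of this length in that set, 94.2% hold at least 1 CG, the median has 7, 31.9% have 3 or fewer and 7.47% have 34 or more. The files hold no methylation or binding readout of these windows.

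**Figure D3:**
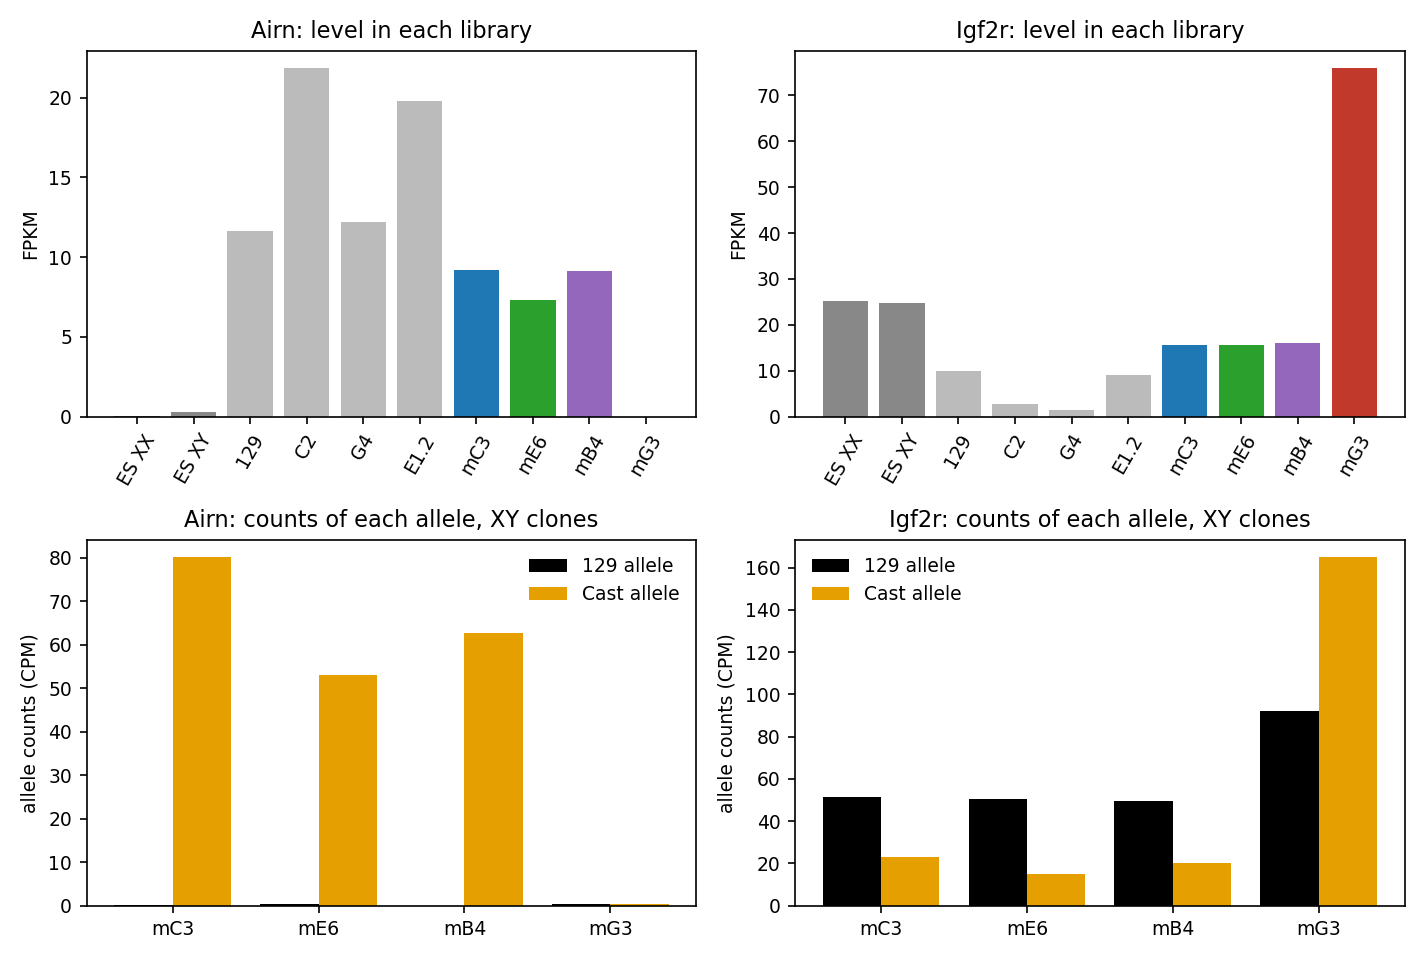
Airn and Igf2r in FPKM in the 10 libraries (top, bars, 1 library each) and as allele counts in CPM in the 4 XY clones (bottom, dark bars 129, orange bars Cast). Airn is at 0.000976 FPKM in mG3 and at most 0.289 in the ES lines, and Igf2r in mG3 reaches 75.9 FPKM with more Cast than 129 counts.

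6 genes were silent in mG3 only (0.0569% of the 10542 genes with at least 100 counts in each sister). Cdkn1c, the cell cycle inhibitor p57 and a maternally expressed imprinted gene (chromosome 7, 150644244 to 150646955), had 605, 1415 and 225 counts in mC3, mE6 and mB4 and 0 in mG3. mC3 and mE6 read it from 129 alone and mB4 from Cast. Slc50a1, a sugar transporter of the Golgi (chromosome 3, 89072168 to 89074492), had 408, 333 and 1856 counts and 0 in mG3. It came from 129 in mC3 (95.1%), from Cast in mE6 (0.3%) and from both in mB4 (48.8%). Cnrip1, which binds the cannabinoid receptor (chromosome 11, 16951851 to 17005595), had 174, 288 and 386 counts and 0 in mG3, with 129 shares of 94.8%, 0.347% and 100%. The sisters thus disagreed with each other on the allele of all 3 genes.

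Fbxw17, an F-box gene (chromosome 13, 50513246 to 50529268), had 2348, 3155 and 1280 counts in mC3, mE6 and mB4 and 0 in mG3. It was at least 809-fold lower in mG3, against a floor of 3 counts in that library. The bound was 341-fold for Slc50a1, 266-fold for Cdkn1c and 107-fold for Cnrip1. 1110021L09Rik (chromosome 10, 23516787 to 23547774) had 1747, 438 and 639 counts against 3, and an unnamed fragment on chromosome 18 had 420, 119 and 136 against 2. Without mE6 the rule found 10 silent genes in place of 6.

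The 7 genes far below every sister (0.0486% of 14415) were Airn and Slc50a1, above, and 5 more. Ptgr1, a reductase of prostaglandins and leukotrienes (chromosome 4, 58978462 to 59000078), had 12505, 7040 and 8513 counts in mC3, mE6 and mB4 and 82 in mG3. The sisters' mean CPM was 123-fold that of mG3. Bag3, a co-chaperone of HSP70 (chromosome 7, 135667097 to 135690493), had 5035, 2115 and 2533 counts and 4 in mG3, an 859-fold difference. It was biallelic in mC3 (54.1%) and from 129 alone in mE6 and mB4 (99.6% and 99.7%). Cspg4, the NG2 proteoglycan of glial precursors (chromosome 9, 56712867 to 56747677), had 5308, 4337 and 4894 counts from Cast alone and 47 in mG3, a 113-fold difference. Peg13, a paternally expressed noncoding RNA (chromosome 15, 72636030 to 72640754), had 2613, 1938 and 1625 counts, also from Cast alone, and 5 in mG3, a 443-fold difference. Trappc9, the gene that surrounds Peg13, kept both alleles, with a 129 share of 52.1% in mG3 and 41.7% to 47.1% in the sisters. Without mC3 the rule found 15 genes far below.

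By edgeR the log2 fold change was -6.94 (SE 0.699) for Ptgr1, -9.7 (SE 0.954) for Bag3 and -6.82 (SE 1.24) for Cspg4. None of these passed its quasi-likelihood test. DESeq2 called all of them, and limma on log2(FPKM + 1) called only Cspg4. The FPKM rule chose them by their level in the same libraries, so no test of that level is independent of the choice. Rps2 with its small nucleolar RNA Snora64, the last of the 7, was at 50.2 FPKM in mG3 and 211.9 to 301.6 in the sisters. Its allele counts were 1582 in mG3 and 1219 to 1558 in the sisters, so the deposited FPKM and the counts did not show the same difference. Ribosomal protein genes have many near-identical copies, and their values are uncertain.

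**Figure D4:**
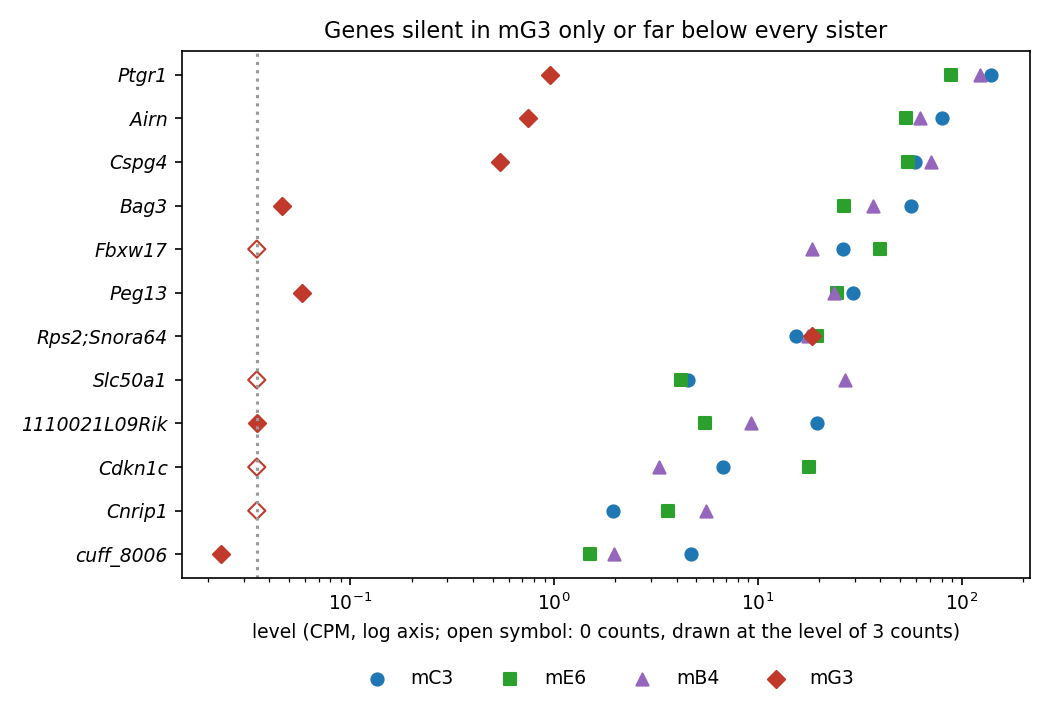
Level in CPM (x axis, log scale) in the 4 XY clones of the 12 genes silent in mG3 only or far below every sister. Diamonds are mG3, open diamonds mark 0 counts and are drawn at the level of 3 counts (dotted line); in 11 of the 12 mG3 lies apart from all sisters, and for Rps2 with Snora64 it lies among them.

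A readout that the level rules did not use is the allele state of these genes in the sisters. Of the 12 genes that were silent or far below, 10 (83.3%) were of a single allele in at least 1 sister and 5 in all 3. Of the 10542 genes with at least 100 counts in each sister, 5.43% were of a single allele in at least 1. The XX clones divide the 12 genes. Cnrip1 had 0 counts in all 4 XX clones, Cspg4 had 45 to 135, and Fbxw17 and Slc50a1 had 0 in 2 of them. Elsewhere Slc50a1 had 35 (G4) and 7 (E1.2), and Fbxw17 had 1659 (C2) and 265 (G4). Peg13 had 5, 11 and 16 counts in C2, G4 and E1.2 but 1141 in clone 129. Cdkn1c had 0, 9 and 7 in 129, G4 and E1.2 but 175 in C2. Bag3 (2536 to 6298 counts), Ptgr1 (6417 to 10447) and Airn were present in all 4.

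The 3 genes far above every sister (0.0208% of 14415) were Igf2r, Lama4 and Pcdhgb8. Lama4, a laminin chain of basement membranes (chromosome 10, 38685321 to 38829994), was at 9.64 FPKM in mG3 and at 0.173, 0.0842 and 0.714 in mC3, mE6 and mB4. That is 29.8 times the sisters' mean, and the highest of all 10 libraries, of which the next was the XY ES line at 0.763. In mG3 it came mostly from Cast (129 share 9.07%, 7380 counts). By edgeR its log2 fold change was 5.01 (SE 1.68) with an adjusted p of 1. Pcdhgb8, a clustered protocadherin of cell recognition (chromosome 18, 37921455 to 38001526), was at 19.8 FPKM in mG3 and 0.68 to 0.975 in the sisters. Its allele counts were 88808 in mG3 and 59497 to 93362 in the sisters, which overlap. Genes of this cluster share their last exons, and neither value can be given to 1 of them with certainty. Without mC3 or mB4 the rule found 8 genes far above.

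Of the list of imprinted genes, 42 of 57 were in the table and all entered the fit: Airn was called lower and none higher by edgeR. 3 had an unadjusted p under 0.05, and DESeq2 called Airn and Igf2r and limma none. Peg13 had no adjusted p from DESeq2. Of all genes 3.43% had an unadjusted p under 0.05 by edgeR, and DESeq2 called 0.4% lower and 0.0218% higher. 12 of the 42 (28.6%) were below every sister in CPM and 8 (19%) above, beside 27.3% and 28.8% of all genes. Of all testable autosomal genes 6.42% were of a single allele in mG3 and 5.83% to 6.95% in the sisters. In mG3 7 of 30 testable imprinted genes were of a single allele, all from Cast. In mC3 it was 13 of 33 (11 from Cast), in mE6 17 of 34 (14 from Cast) and in mB4 8 of 33 (7 from Cast). Kcnq1 and Kcnq1ot1 had the same counts in mG3 (4688), and enter these numbers under both names although they are 1 observation. Both were of a single allele in mC3 and mE6 and biallelic in mG3 and mB4. 6 genes were of a single allele in all 3 sisters: Peg10, Sgce, Cdkn1c, Gnas, Peg13 and Airn. Cdkn1c with 0 counts and Peg13 with 5 could not be scored in mG3. Of the 4 that could, 1 was of a single allele, Sgce, with a 129 share of 2.97%. When mC3, mE6 or mB4 stood in the place of mG3, 1 of 2, 1 of 1 and 1 of 4 such genes were, all scorable. In mG3 Airn was scored on only 64 counts, which cannot be told from reads of Igf2r in their overlap, and Gnas on 33. The state of these genes in mG3 is therefore uncertain.

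Peg10, a paternally expressed gene derived from a retrotransposon, had a 129 share of 25.4% in mG3 over 89553 counts and 0.784%, 0.00988% and 0.0303% in mC3, mE6 and mB4. Gnas, the stimulatory G protein subunit locus, had 75.8% over 33 counts against 100%, 97.8% and 97.9%. Kcnq1ot1, the paternal noncoding RNA of the Cdkn1c domain, had 56.0% in mG3 and 61.8% in mB4, but 2.65% in mC3 and 0.04% in mE6. Peg3, a paternally expressed zinc finger gene, stayed on Cast in mG3 (0.0156%), as in mC3 and mE6, while mB4 had 51.9%. The clones therefore differed from gene to gene.

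The converse rule, chosen after the values were seen, asks for genes biallelic in mG3 and of a single allele in all 3 sisters. It found 14 genes (0.119% of 11726), against 8 for mC3, 4 for mE6 and 21 for mB4. In 12 of the 14 the sisters shared their allele, 6 times 129 and 6 times Cast, and only 3 genes had at least 100 counts in every XY clone. Nid1, the basement membrane protein nidogen (chromosome 13, 13529869 to 13604542), had a 129 share of 48.9% in mG3 over 1076 counts and 98.2%, 96.2% and 99.2% in mC3, mE6 and mB4. Its FPKM was 0.955 in mG3 and 2.74, 1.26 and 1.97 in the sisters. 1810013D10Rik had 43.6% over 495 counts, against 0.952%, 0.18% and 0.357%. Pdgfrl, a gene named for its likeness to a growth factor receptor, had 42.3% over 310 counts. It was from Cast in mC3 and mE6 (0.172% and 0.195%) and from 129 in mB4 (93.9%).

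None of the 39 single-allele genes belonged to any of the 15 gene lists, among them markers of NPC and other cell types. The lists are small, with 6 to 42 genes each in the table beside 14415 autosomal genes. Their absence among 39 genes therefore says little. Of 29 neural progenitor genes in the fit none passed by edgeR, 3 had an unadjusted p under 0.05, and DESeq2 and limma each called 1, Cspg4. 15 of them (51.7%) were below every sister and 2 (6.9%) above, with a median log2 fold change of -0.24. Of all 14307 genes 27.3% were below every sister, 28.8% above and 3.43% at an unadjusted p under 0.05, with a median of -0.01. Fabp7 was at 1659 FPKM in mG3 and at 3426, 2481 and 2519 in mC3, mE6 and mB4. Olig1, a transcription factor of glial precursors, was at 612 against 900.6, 821.2 and 1003. Hes5, a target of Notch signalling, was at 2.77 against 21.1, 6.96 and 10.9. Nes, at 346.7 against 308, 298.1 and 222.6, lay on the other side of every sister. Of 10 astrocyte genes 5 (50%) were below every sister, beside the 27.3% of all genes, and 1 (10%) above, beside 28.8%. Of these 10 none passed by edgeR, DESeq2 or limma, and 1 had an unadjusted p under 0.05.

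Of 28 cell cycle genes 14 (50%) were above every sister in CPM and 3 (10.7%) below, beside 28.8% and 27.3% of all genes, with a median of 0.14 beside -0.01, and 1 had an unadjusted p under 0.05. Cdkn2a, which encodes the inhibitors p16 and p19Arf, was at 183.6 FPKM in mG3 and at 84.7, 87.1 and 134.5 in mC3, mE6 and mB4. Ccne1, cyclin E1, was at 52.3 against 33.9, 32.3 and 29.9. Of 20 p53 targets 8 (40%) were above and 1 (5%) below. Of 29 matrix genes 11 (37.9%) were above and 9 (31.0%) below, and for both lists the shares of all genes were 28.8% and 27.3%. By edgeR, DESeq2 or limma no gene of these 3 lists passed, with 0 p53 targets and 3 matrix genes at an unadjusted p under 0.05. Lama4, of the matrix list, had no adjusted p from DESeq2 and so could not pass there. For all 3 lists the share of all genes at an unadjusted p under 0.05 by edgeR was 3.43%. Markers of fibroblasts did not pass 11.9 FPKM in any XY clone. Of 15 such markers 6 (40%) were above every sister and 3 (20%) below, beside 28.8% and 27.3% of all genes. Their part in the matrix values was not tested.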

How the data were processed

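The authors deposited 1 table with raw counts, the share from 129 (0 to 1, printed in percent) and FPKM for each gene and library. Per the submitters' processing notes, the tools were SAMtools, Cufflinks 1.3.0 and TopHat 1.4.0, and the build was mm9. Which step made which deposited column, the variants and the strand of counting are not given in the sources used here. Starts had 1 added: 4058 of 12489 matched genes then equal the annotated start, against 329 without. The deposited counts went into edgeR 4.0.16 (TMM, filterByExpr, quasi-likelihood F test, Benjamini-Hochberg 0.05, groups mG3, sisters and XX clones, no covariate). In simulated data, where genes of like level had the same spread, it recovered 46% of 4-fold and 93% of 16-fold changes, with 7 false calls. Spread particular to a gene was not simulated, so recovery in these clones was not tested. DESeq2 1.42.0 and limma 3.58.1 were alternatives. CPM are counts per library total, scaled by TMM factors. An exact permutation of 1 against 3 libraries cannot go below p = 0.25, so none was run. Named genes were, by rule, the 15 with the most counts in mG3 among single-allele genes with 1 symbol, the silent and far genes, and members of the lists. Members, rules and lists were chosen with earlier results of these data known. X-linked genes and the repeat libraries of C2 and mC3 were not analysed here, and 1 item is not reported here. A read over several variants may count more than once, and intervals and floors cover counting error only.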

Additional observations from a re-analysis of the deposited data

Results flagged for a closer look

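Over 29 tests of the 4 XX clones for a value far from the others, which chance gives in about 1 of 20 groups, 6 genes of mG3 stood out in 1 XX clone. Peg13 was at 4.26 FPKM in clone 129 and 0.0154 to 0.0309 in the others. Cspg4 was at 0.167 FPKM in clone 129 against 0.0317 to 0.0474. Cdkn1c was at 0.632 FPKM in C2 against 0 to 0.0429, and Lama4 at 0.56 FPKM in G4 against 0.0257 to 0.0806. For Pttg1 the 129 share was 48.6% in E1.2 and 0.0526% to 7.08% in the others. For Zfp770 it was 93.5% in E1.2, the allele opposite to mG3, and 49.7% to 54.2% in the others.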

How the results depend on the processing

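The 39 single-allele genes became 22 and 14 with at least 100 and 500 counts in every clone, 14 where the single allele had to reach 95%, 11 with sisters at most 60%, and 67 to 79 with 1 sister left out. Silent genes rose from 6 to 17 with at least 20 counts in each sister, and were 6 to 10 with 1 sister left out. Genes far above went from 3 to 5 with a pseudocount of 0.1 and to 18 at a distance of 1, and were 4 to 8 with 1 sister left out. Genes far below went from 7 to 26 and 34 under the same settings and to 16 with CPM in place of FPKM, and were 9 to 15 with 1 sister left out. DESeq2 called 3 genes higher and 55 lower, among them 9 of the 15 silent or far genes and 0 of the 39; a fit of the 4 XY clones, or 1 sister left out (0 to 0), called 0 lower. Lama4 and Peg13 had no adjusted p from DESeq2, so it could not call them. The median log2 fold change of the 39 genes was -0.35 as a difference of log2(FPKM + 1) and -0.92 to -0.79 with 1 sister left out. The cause was not tested, beyond fewer sisters asking less of a gene. For Airn the log2 fold change kept its sign in all 8 alternatives, and the adjusted p ranged from 1.53e-54 (DESeq2) to 0.192. No paired analysis was possible because the clone numbers follow accession order and pair no libraries. Depth limits the genes under 100 counts, and 1 library of mG3 limits every level.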

Other observations

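Outside the rules, Fggy, a carbohydrate kinase gene, had a 129 share of 100% in mG3 over 304 counts and 4.24%, 0.613% and 0.118% in mC3, mE6 and mB4. It was chosen after its values were seen. Its FPKM was 0.802 in mG3 and 2.42, 2.7 and 2.85 in the sisters.

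Of 22 clustered protocadherins of the beta group in the table, 21 had an adjusted p from DESeq2, and 4 were called lower in mG3 and 0 higher, beside 0.4% of all genes called lower. The family was picked after its values were seen. The log2 fold changes were -4.91 for Pcdhb3, -1.74 for Pcdhb5, -2.83 for Pcdhb6 and -2.83 for Pcdhb11, with adjusted p from 5.84e-13 to 0.0227, and edgeR called none of them. The other 2 genes that DESeq2 called higher beside Igf2r were Cul9 (2.54, adjusted p 0.000592) and Sh3rf2 (7.94, adjusted p 0.0498).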
